A study of Mus musculus with 24 samples.

Results

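The ADAM genes encode membrane-anchored proteins with a metalloprotease domain and a disintegrin domain. This account follows 8 of the 78298 gene rows in a liver RNA-seq count table: Adam11 and 7 family members with a catalytic zinc site, Adam8, Adam9, Adam10, Adam12, Adam15, Adam17 and Adam19. Rows were matched by gene symbol, and all 8 genes were found and passed the filter on low counts. The members had been picked with their difference between model and control livers already known, so that difference is described for them with no p-value, and the calls among them are only counted beside the share of all genes called.

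The libraries came from whole liver of 24 mice, 1 library per mouse: 6 normal controls and 18 mice of a steatohepatitis model, a fatty and inflamed liver disease. The labels give no diet, strain, sex, age or time under the model. They name no batch, and replicate spread is the spread between these mice.

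Catalytic ADAMs cut the extracellular part of membrane proteins from the cell surface, a step called shedding. Adam17 is the main enzyme releasing tumour necrosis factor and ligands of the EGF receptor, and Adam10 cleaves Notch receptors and cadherins. Both are made as inactive precursors that furin-type convertases process, and they depend on partner proteins, the iRhoms for Adam17 and a group of tetraspanins for Adam10. Adam11 belongs with Adam22 and Adam23 to a branch without protease activity, known mainly from neurons, where these proteins bind secreted LGI proteins and help to place potassium channels.

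The codons around the zinc site are shown because they separate Adam11 from the other 7 genes. Each line is a stretch of 39 bases of coding sequence, 5′ to 3′, from GENCODE M21 transcripts on GRCm38. Capitals mark the codons of the 3 zinc-binding histidines and of the catalytic glutamate, and for Adam11 the codons aligned with them.
Adam11: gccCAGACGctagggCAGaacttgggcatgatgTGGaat
Adam8: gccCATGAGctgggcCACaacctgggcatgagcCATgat
Adam9: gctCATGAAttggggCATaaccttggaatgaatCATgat
Adam10: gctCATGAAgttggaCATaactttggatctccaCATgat
Adam12: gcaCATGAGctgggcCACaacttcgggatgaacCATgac
Adam15: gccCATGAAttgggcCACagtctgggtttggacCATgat
Adam17: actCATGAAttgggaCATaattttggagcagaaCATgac
Adam19: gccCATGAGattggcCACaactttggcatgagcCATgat

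In Adam11 the stretch covers codons 375 to 387, and it keeps 0 of the 3 histidine codons and no glutamate codon. The other 7 members carry all of them. Of 35 ADAM genes listed, 34 had a coding sequence, and 20 of these held the complete motif, searched in the translated reading frame, while 14 did not. Over aligned residues, the protein translated from Adam11 was 54.2% identical to that of Adam23 and 53.8% to that of Adam22. Its identity to the 7 catalytic members ran from 25.5% for Adam17 to 37.8% for Adam19.

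Library totals were 31.6 to 49.5 M counts in controls and 32.2 to 58.4 M in model mice. Levels are given as CPM, the counts of a gene per M counts of its library after TMM scaling, and 3 counts stood for 0.0488 to 0.107 CPM. Summed hepatocyte markers lay at 120600 to 186200 CPM in controls and 58280 to 119100 in model livers, with 7 of 8 markers lower. Macrophage markers summed to 35.5 to 79.2 CPM in controls and 191 to 858 in model livers (7 of 8 higher), and stellate cell and fibroblast markers to 61.4 to 151 and 168 to 428 (9 of 9 higher). Of all genes tested, 31.2% were called higher and 28.8% lower. The part of these marker shifts in the ADAM levels between the groups was not tested. In bulk tissue, a changed number of cells of a type and a changed amount of RNA per cell cannot be told apart.

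Adam11 lies on chromosome 11 at 102652265 to 102671088, plus strand, of GRCm39. Its level in controls had a lowest value of 4.93, a median of 7.19 and a highest value of 7.97 CPM. In model mice the lowest was 52.6, the median 74.7 and the highest 99.4 CPM. The ranges were far apart, and the lowest model mouse (replicate 3) stood well above the highest control. The group means were 6.95 ± 1.14 (SD, n = 6) and 74.4 ± 14.1 CPM (SD, n = 18), a ratio of 10.7 and a log2 fold change of 3.42 (SE 0.15). By log2 fold change Adam11 ranked 240 among 17456 genes tested, and 16 among the 2467 with a mean of at least 50 CPM in model mice. Among genes with a symbol, the only one tested within 50000 bases was Gjc1, a connexin gene, at 0.184 ± 0.0898 and 0.327 ± 0.108 CPM. Its log2 fold change of 0.82 (SE 0.30) had an adjusted p of 0.0199 in edgeR's quasi-likelihood test, and that call was lost without control 3 (adjusted p 0.0614) or control 5 (0.0633).

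Adam8, a sheddase of leukocytes on chromosome 7 (139558845 to 139572475, minus strand), was near the detection limit in controls. Control values ran from 0.0322 through a median of 0.269 to 0.532 CPM. Model values ran from 0.583 through 4.63 to 8.88 CPM. The ranges did not overlap, but the lowest model mouse, replicate 10, came close to the highest control. The fold of the means was 17.6 and the log2 fold change 4.14 (SE 0.54), on 51 counts in all controls together. Model mice varied far more in Adam8 than in Adam11, with coefficients of variation of 53.3% and 19.0%.

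Adam15, found in endothelial and epithelial cells (chromosome 3, 89245849 to 89257303, minus strand), had control values of 0.675, 0.964 and 1.07 CPM (lowest, median, highest). The corresponding model values were 1.17, 2.53 and 3.95 CPM. Every model mouse was above every control, again with replicate 10 lowest. The log2 fold change was 1.53 (SE 0.18).

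Adam19 (chromosome 11, 45946819 to 46038170, plus strand), which sheds neuregulins, ran from 0.257 through 0.409 to 0.781 CPM in controls and from 0.674 through 1.40 to 1.82 CPM in model mice. The groups overlapped slightly, with 16 of 18 model mice above all controls. Its log2 fold change was 1.45 (SE 0.23). Adam12, a mesenchymal ADAM of stellate cells and fibroblasts (chromosome 7, 133484928 to 133833875, minus strand), was the lowest member. It had 26 counts over all controls, with 0.0294, 0.132 and 0.220 CPM as lowest, median and highest, against 0.218, 0.495 and 0.863 CPM in model mice. The ranges met at their ends, 17 of 18 model mice exceeded every control, and the log2 fold change was 1.83 (SE 0.30).

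The 3 most abundant sheddases differed little. Adam10 (chromosome 9, 70586279 to 70687511, plus strand) ran from 20.0 through 24.9 to 26.7 CPM in controls and from 25.5 through 29.2 to 39.2 CPM in model mice. The ranges overlapped at their edge, 16 of 18 model mice lay above all controls, and the log2 fold change was 0.32 (SE 0.08). Adam17 (chromosome 12, 21373510 to 21423633, minus strand) ran from 15.0 through 17.0 to 20.4 CPM in controls and from 14.8 through 17.6 to 22.7 CPM in model mice. Those ranges overlapped almost fully, at a log2 fold change of 0.06 (SE 0.08). Adam17 shares 311 exon bases with Iah1 on the opposite strand, which stood at 114 CPM in controls and 85.3 CPM in model mice. No source used here gives the strand setting of the counting, and reads of that stretch cannot be told apart.

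Adam9 (chromosome 8, 25439627 to 25506943, minus strand) ran from 65.0 through 75.9 to 81.5 CPM in controls and from 44.5 through 72.5 to 83.2 CPM in model mice. Most model mice lay within the control range, and 4 of 18 fell below all controls. Its log2 fold change was -0.15 (SE 0.11). With unscaled library totals it was 0.18, and those of Adam10 and Adam17 were 0.65 and 0.40. That scaling moved the median of all genes from 0.01 to 0.34, so these 3 small differences sit close to the shift of the scale.

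**Figure D1:**
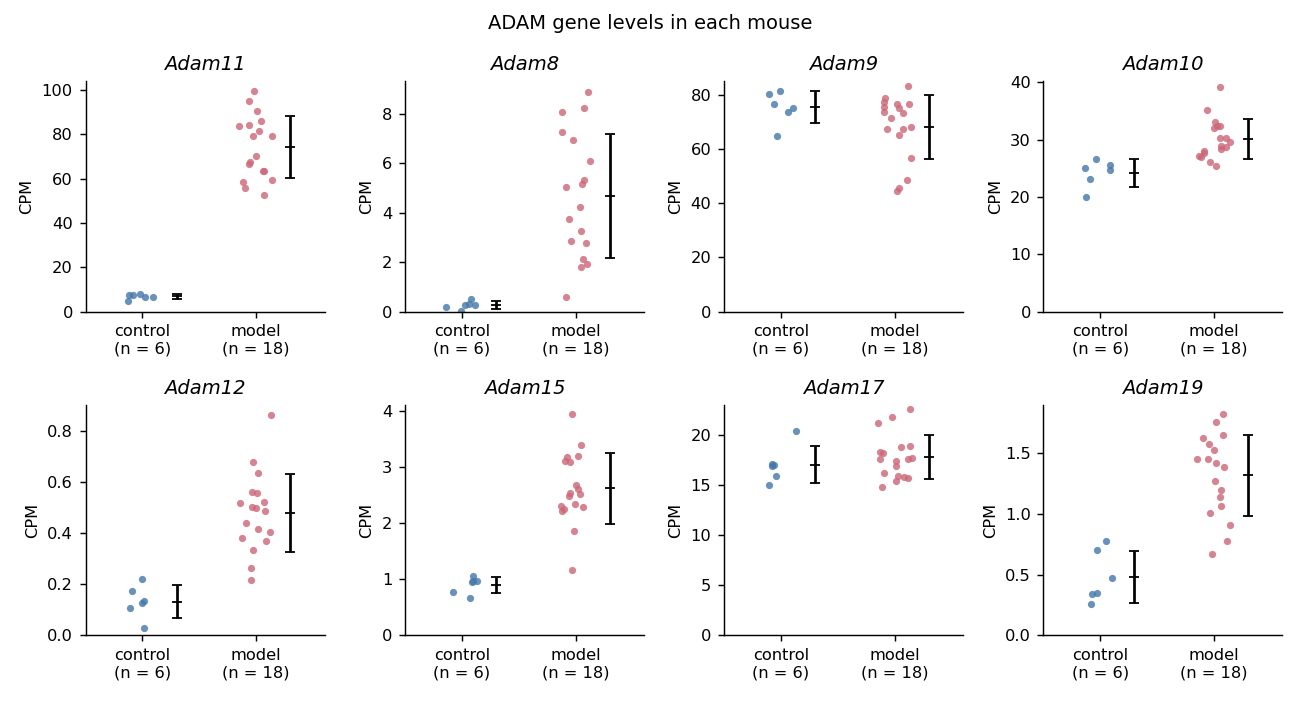
Levels of the 8 ADAM genes in each mouse, in CPM, for 6 control and 18 model mice; each point is a mouse, and the bar beside the points gives the mean and SD. Adam11 runs from 4.93 to 7.97 CPM in controls and from 52.6 to 99.4 in model mice, while the Adam9 and Adam17 groups overlap.

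Across the members, 6 of 8 were called higher in model mice at an adjusted p below 0.05, 0 were called lower, and Adam9 and Adam17 were not called. Over all genes tested, 60.0% were called, 31.2% higher and 28.8% lower. Every model mouse was above every control for 3 members, Adam11, Adam8 and Adam15, as for 9.67% of all genes, and below every control for 0 members, against 6.02% of all genes. The members' median log2 fold change was 1.49, against 0.01 over all genes. Since the members were selected on this contrast, these counts describe the choice.

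Levels of different genes were compared per kilobase of exon length. In controls the order was Adam9 at 18.3 ± 1.44 CPM per kb, Adam10 at 4.92 ± 0.481, Adam17 at 2.39 ± 0.254, Adam11 at 1.23 ± 0.201 and Adam15 at 0.147 ± 0.0238 (SD, n = 6). Neighbours in that order did not overlap. Below them, Adam19 (0.0679 CPM per kb) overlapped Adam8 (0.0573), and Adam8 overlapped Adam12 (0.0125).

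In model mice Adam11 stood next to the top, at 13.1 ± 2.49 CPM per kb behind Adam9 at 16.5 ± 2.84 (SD, n = 18). The ranges of these genes overlapped, although Adam9 was higher than Adam11 within each of the 18 mice. Adam10 (6.13 ± 0.708) and Adam17 followed without overlap, then Adam8 at 1.01 ± 0.538 CPM per kb. Adam8 overlapped Adam15 (0.427), which overlapped Adam19 (0.185), and Adam12 stayed lowest at 0.0455 CPM per kb.

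Adam11 made up 4.55 ± 0.884% of the summed length-scaled level of the 8 genes in controls (3.18 to 5.42%). In model mice the share was 32.7 ± 3.62% (25.8 to 37.8%). Without Adam11, the summed level of the other 7 was 25.9 ± 1.55 CPM per kb in controls and 26.8 ± 2.96 in model mice.

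**Figure D2:**
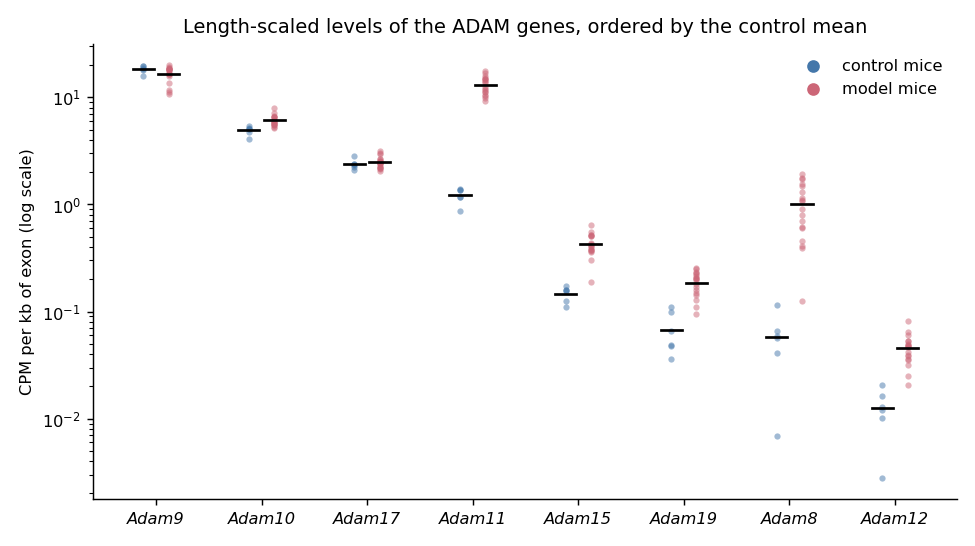
Length-scaled level of each gene, in CPM per kb of exon on a log axis, in control and model mice; points are mice, black lines the group means, and genes are ordered by the control mean. Adam11 stands at 1.23 CPM per kb in controls, below Adam17, and at 13.1 in model mice, above Adam10.

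Differences among the 18 model mice were not used to pick the genes and could be tested. Log2 CPM values were correlated with permutation tests of 100000 resamples, two-sided, adjusted over a family of 23 relations. Marker scores were the mean log2 CPM of each marker list. Along the first principal component of the model mice (33.1% of variance), the widest gap set model replicate 10 apart from the other 17. Other components were not examined for clusters.

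Adam11 went with 1 of the 7 catalytic members. Its correlation with Adam9 was r = 0.637 (rho = 0.680, permutation p = 0.00368 and 0.00265, adjusted p = 0.0106 and 0.00845). Without model 3 and model 16, the mice farthest from the Adam9 median, r was 0.449 and no longer passed (adjusted p = 0.163), so the call depends on those mice. The other r values lay between -0.479 for Adam12 (adjusted permutation p = 0.0792) and 0.137 for Adam19 (0.675), and none of these passed.

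Adam11 did not follow the scores of the inflammatory or scar-forming cells. Its r was -0.045 with the macrophage score (rho = -0.030, adjusted permutation p = 0.896) and -0.179 with the stellate cell and fibroblast score (rho = -0.276, adjusted permutation p = 0.629). Adam9 passed with neither score (r = -0.034 and -0.304, adjusted permutation p = 0.896 and 0.307).

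Of the 16 relations between a member and a score, 11 passed, and they belonged to the other 6 catalytic members. Adam17 had the closest relation to the macrophage score, r = 0.891 (rho = 0.907, p = 1e-05, the smallest these permutations give, adjusted p = 0.000115). Adam19 followed at r = 0.798 (rho = 0.736, adjusted permutation p = 0.00023), then Adam10 at 0.694 (rho = 0.775, 0.00575), Adam8 at 0.673 (rho = 0.672, 0.007) and Adam15 at 0.614 (rho = 0.540, 0.0162). Adam12 did not pass (r = 0.421, adjusted permutation p = 0.135), except with unscaled totals (r = 0.529, adjusted permutation p = 0.0431).

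Adam8 had the closest relation to the stellate cell and fibroblast score, r = 0.905 (rho = 0.856, adjusted permutation p = 0.000115). Adam15 came next at r = 0.866 (rho = 0.631, adjusted permutation p = 0.00023). Model 10 had the lowest score and the lowest Adam8 and Adam15; without it r was 0.818 for Adam8 and 0.710 for Adam15, and both passed. Adam19 (r = 0.727, adjusted permutation p = 0.00478), Adam10 (0.612, 0.0207), Adam12 (0.565, 0.0327) and Adam17 (0.550, 0.0327) also passed. Without model 9 and model 10, the mice farthest from the score's median, r was 0.827 for Adam8 and 0.597 for Adam15. Over both scores, 7 of the 11 relations passed when the 2 farthest mice were left out. The relations lost were those of Adam19 (r = 0.438, adjusted permutation p = 0.173), Adam10 (0.560, 0.0608) and Adam17 (0.506, 0.106) with the stellate cell and fibroblast score. That of Adam15 with the macrophage score (0.565, 0.0542) was lost as well. Of these 4, Adam19 fell most in r, from 0.727. For Adam10, Adam17 and Adam15, r stayed close to its value over all 18 mice (0.612, 0.550 and 0.614). Whether the correlations of Adam11 differ from those of the other members was not tested.

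**Figure D3:**
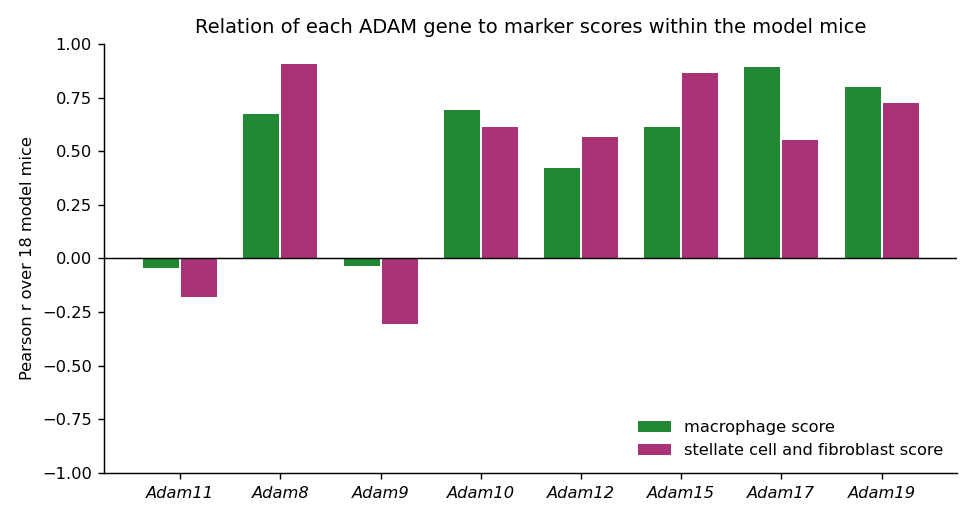
Pearson r of each ADAM gene with the macrophage score and with the stellate cell and fibroblast score over 18 model mice. Bars for Adam11 (-0.045 and -0.179) and Adam9 (-0.034 and -0.304) lie below 0, and those of the other 6 genes lie above it.

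**Figure D4:**
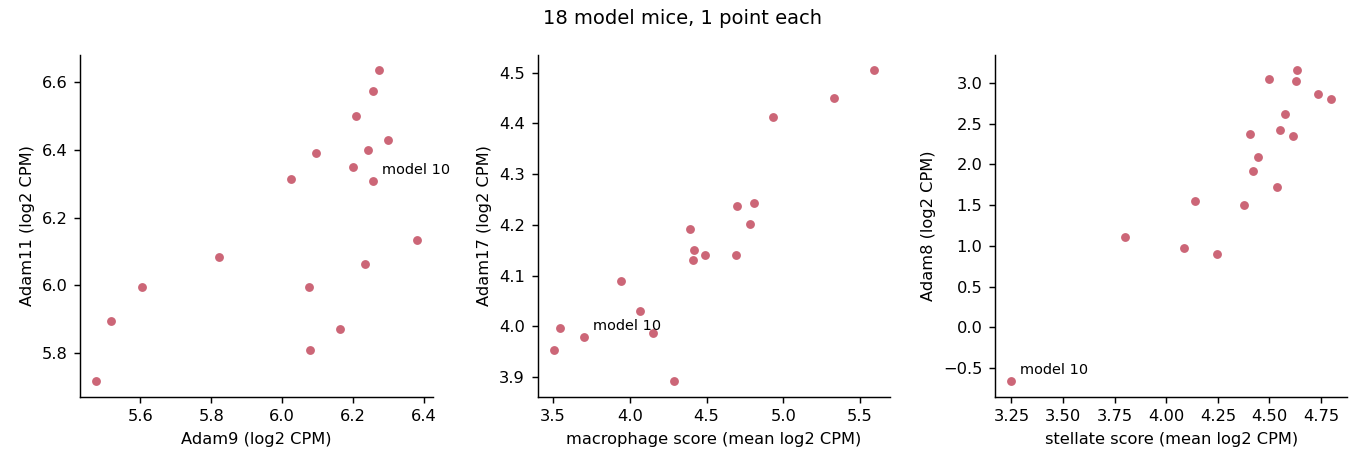
Model mice as single points in log2 CPM: Adam11 against Adam9 (r = 0.637), Adam17 against the macrophage score (r = 0.891) and Adam8 against the stellate score (r = 0.905). Model 10 is named and lies far below the other mice in the last panel.

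Of 11617 genes ranked by Pearson r with Adam11 over the 18 model mice, the 5 highest were Gphn (r = 0.867), Cyp3a13 (0.829), Ddi2 (0.807), Tomm40l (0.800) and Adcy4 (0.794). They were picked for this r, which is given as a description. Gphn, which encodes the scaffold protein gephyrin, was at 67.8 CPM in controls and 60.4 in model mice and was not called (adjusted p = 0.0603 in edgeR). Gphn passed with DESeq2 (adjusted p = 0.0458) and with the size factors of DESeq2 (0.0468). It also passed in edgeR without model 7 (adjusted p = 0.0395), model 11 (0.0491) or model 14 (0.0345). Cyp3a13, a cytochrome P450, fell by 0.58 on the log2 scale (SE 0.12, adjusted p = 0.000118), and Ddi2, a protease of the ubiquitin system, fell by 0.37 (SE 0.10, adjusted p = 0.00333). The Ddi2 call was lost with unscaled library totals (adjusted p = 0.683) and with a clock-gene index as covariate (0.364), which also ended that of Tomm40l (0.063). None of the 5 had a difference between groups near that of Adam11: Tomm40l had a log2 fold change of 0.68 and Adcy4 one of 0.49. The Adcy4 call (adjusted p = 0.0398) was lost on leaving out any of 11 libraries, controls 2, 3, 5 and 6 and model 5, 6, 7, 11, 12, 14 and 15 (adjusted p 0.0501 to 0.12), with limma-voom (0.0672) and with the clock covariate (0.0686).

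The remaining ADAM genes were mostly silent. Of 26 matched, 19 had too few counts to test, among them Adam28 with 0 counts in controls and 3 in model mice and the testis gene Adam2 with 56 and 107. Of the 7 tested, 4 rose and 1 fell, with a median log2 fold change of 0.59. Over all genes tested, 31.2% rose and 28.8% fell, with a median of 0.01. Adamdec1, a soluble family member of macrophages and gut stroma, had 0.451 ± 0.101 CPM in controls and rose to 1.90 ± 0.515 in model mice, by 2.07 on the log2 scale (SE 0.20, adjusted p = 3.48e-09), above all controls in 18 of 18. Adam32 fell from 0.851 ± 0.204 to 0.209 ± 0.128 CPM, by 1.99 on the log2 scale (SE 0.29, adjusted p = 1.64e-06), and was below all controls in 18 of 18.

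The closest relatives of Adam11 by sequence also rose. Adam22 went from 0.167 ± 0.0890 to 0.383 ± 0.148 CPM, a log2 difference of 1.18 (SE 0.32, adjusted p = 0.00267). Adam23 went from 4.09 ± 0.861 to 6.17 ± 2.31 CPM, a log2 difference of 0.59 (SE 0.25, adjusted p = 0.0452). That call is fragile: it was lost on leaving out any of 16 libraries, controls 1, 3, 4, 5 and 6 and model 1, 5, 6, 7, 8, 11, 12, 14, 15, 17 and 18 (adjusted p 0.05 to 0.107), with limma-voom (0.167) and with no filter on low counts (0.109). Adam1a also rose (log2 fold change 0.81, adjusted p = 0.00621), while Adam33 (0.45, adjusted p = 0.377) and Adam4 (0.36, 0.277) did not pass. With unscaled totals Adam4 passed (0.0434). With a clock-gene index as covariate, the calls of Adam22 (adjusted p = 0.14) and Adam1a (0.134) were lost.

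Ligands and partners of the non-catalytic branch were tested for 9 of 14 genes. Of these, 7 rose and 1 fell, against 31.2% and 28.8% of all genes tested. Their median log2 fold change was 1.18. From here on, brackets that hold both a log2 fold change and an adjusted p give the log2 fold change first. Adam22 and Adam23 belong to this list as well, so 2 of the 7 were already counted among the other ADAM genes. Kcnab2, a potassium channel beta subunit, rose from 0.179 ± 0.0653 to 1.49 ± 0.568 CPM (3.02, SE 0.35, adjusted p = 5.26e-08). Kcna2, the channel subunit that Kcnab2 binds, rose from 0.981 ± 0.419 to 3.22 ± 1.23 CPM (1.71, SE 0.28, adjusted p = 9.48e-06). Lgi2 rose from 0.0450 to 0.289 CPM on 9 control counts (2.59, SE 0.59, adjusted p = 0.000503), and its log2 fold change was 3.40 without control 1. Lgi1 had 0 counts in both groups, and Kcna1 had 1 and 2. Dlg1, a scaffold of the synapse and of epithelia and the most abundant of the list, rose from 44.7 ± 3.33 to 55.9 ± 5.49 CPM (0.32, adjusted p = 0.000227).

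Neuron and Schwann cell markers stayed near the detection limit. Of 13, 3 had 0 counts in every library (Snap25, Th and Dbh), 7 had under 3 counts in every library, and their sum was 1.31 to 1.96 CPM in controls and 2.09 to 3.89 CPM in model mice. The 1 called marker, Syn1, a synaptic vesicle gene, rose from 0.0952 ± 0.0593 to 0.971 ± 0.396 CPM (3.29, SE 0.39, adjusted p = 5.91e-08), on 19 control counts. Timp1, which rose from 0.0485 to 3.08 CPM, lies within the span of Syn1 on the opposite strand. Shared exon bases were not examined for this pair, and the strand setting of the counting is not known. Whether reads from the Timp1 locus add to the Syn1 counts was not tested.

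The secreted relatives, ADAMTS proteases and ADAMTS-like proteins, process and organise the matrix. Of 18 tested, 17 rose and 0 fell, against 31.2% and 28.8% of all genes tested. The median log2 fold change of these 18 was 1.32. Adamtsl3, Adamts4, Adamts16 and Adamts12 had 5, 19, 20 and 37 control counts and could pass the low-count filter only with model mice. The filter thus favoured a rise for these genes, and the count of 17 includes them. Adamtsl3 had the largest difference (3.07, SE 0.44, adjusted p = 1.37e-06), from only 5 control counts, followed by Adamts12 (0.181 CPM in controls and 0.971 in model mice, a log2 difference of 2.37, SE 0.30, adjusted p = 2.12e-07). Adamts2, the procollagen N-proteinase, rose from 1.97 ± 0.768 to 6.62 ± 1.97 CPM (1.74, SE 0.26, adjusted p = 2.36e-06). Adamts1, the most abundant, rose from 7.38 ± 3.17 to 11.4 ± 2.45 CPM (adjusted p = 0.00395), as did Adamts13, the von Willebrand factor protease of stellate cells (log2 fold change 0.74, adjusted p = 0.00475). Adamts6 did not pass (0.13, adjusted p = 0.521), except with unscaled totals (adjusted p = 0.0276).

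Of 14 tested genes for maturation and trafficking of the sheddases, 5 rose, 3 fell and 6 did not pass, with a median log2 fold change of 0.14. These shares are near the 31.2% higher and 28.8% lower over all genes tested. Of the iRhoms that carry Adam17 to the surface, Rhbdf1 rose from 4.95 ± 0.992 to 12.1 ± 2.44 CPM (1.29, SE 0.14, adjusted p = 1.82e-08) and Rhbdf2 from 10.4 ± 1.73 to 14.3 ± 1.71 CPM (0.46, adjusted p = 0.000112). Their partner Frmd8 did not pass (0.12, adjusted p = 0.434), except with unscaled totals (adjusted p = 0.00996). Among tetraspanins, which guide Adam10, Tspan15 rose from 0.861 to 3.33 CPM (1.94, SE 0.23, adjusted p = 7.76e-08) and Tspan33 fell from 23.4 ± 5.02 to 5.27 ± 1.57 CPM, by 2.15 on the log2 scale (SE 0.16, adjusted p = 2.57e-11).

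Sh3pxd2b, an adaptor of invasive protrusions that binds ADAMs, rose from 0.860 to 6.19 CPM (2.84, SE 0.31, adjusted p = 2.51e-08). The convertases moved in both directions. Furin fell from 186 ± 29.0 to 142 ± 20.1 CPM (by 0.39, adjusted p = 0.00105) and Pcsk7 from 42.6 to 30.2 CPM (by 0.50, adjusted p = 1.44e-06), while Pcsk6 rose from 127 to 160 CPM (0.34, adjusted p = 0.0101). The Furin call was lost with unscaled library totals (adjusted p = 0.586) and with the clock covariate (0.0745), which also ended that of Pcsk6 (0.694).

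Of the inhibitors, 2 of 4 tested rose and 0 fell, against 31.2% and 28.8% of all genes tested. A list of 4 genes is too short to set against these shares. Timp1 went from 0.0485 to 3.08 CPM (5.84, SE 0.60, adjusted p = 1.03e-08) on 10 control counts, and Timp2, the most abundant, from 9.02 ± 1.26 to 21.0 ± 7.22 CPM (1.22, SE 0.22, adjusted p = 3.28e-05). Timp3, the inhibitor of Adam17, had a log2 fold change of 0.55 and an adjusted p of 0.0878. It passed without model 3 (adjusted p = 0.0468) or model 9 (adjusted p = 0.0401), with upper-quartile factors (adjusted p = 0.0499) and with unscaled totals (adjusted p = 0.0104).

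Among membrane proteins known to be shed, 22 of 38 tested rose and 6 fell, with a median log2 fold change of 0.64. Over all genes tested, 31.2% rose and 28.8% fell, with a median of 0.01. Tnf, a substrate of Adam17, rose from 0.0606 to 0.738 CPM (3.43, SE 0.41, adjusted p = 6.67e-08), Trem2, a macrophage receptor, from 0.270 to 13.9 CPM (5.62, SE 0.64, adjusted p = 6.62e-08) and Cd44 from 2.89 to 20.3 CPM (2.81, adjusted p = 1.16e-09). Areg, a ligand of the EGF receptor, rose from 0.0310 to 0.514 CPM (3.94, SE 0.64, adjusted p = 7.61e-06) on 6 control counts, and its log2 fold change was 5.08 without control 5. Il6ra, the interleukin 6 receptor, fell from 80.3 ± 23.2 to 29.4 ± 5.63 CPM, by 1.45 on the log2 scale (SE 0.13, adjusted p = 1.34e-09). Sdc4, the most abundant, fell from 406 to 280 CPM (by 0.54, adjusted p = 4.82e-05). Its call was lost with unscaled totals (adjusted p = 0.0567).

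Notch2, a substrate of Adam10, fell from 37.0 ± 3.45 to 32.7 ± 3.22 CPM (by 0.18, SE 0.07, adjusted p = 0.0224). This call was lost without control 2 (adjusted p = 0.0722) or control 5 (0.0589), with upper-quartile factors (0.27), the clock covariate (0.299), a minimum of 1 CPM in 6 libraries (0.0513) or no filter (0.104). With unscaled library totals the difference turned to 0.15. Of 8 integrin subunits that disintegrin domains bind, 3 rose and 2 fell, again near the shares over all genes. Itga9 rose from 3.79 to 12.2 CPM (1.68, SE 0.17, adjusted p = 9.38e-09) and Itga5 fell from 37.1 to 20.0 CPM (by 0.89, SE 0.10, adjusted p = 5.71e-08), though not with the clock-gene index in the fit (adjusted p = 0.211). Itgb1, the most abundant, fell by 0.14 (adjusted p = 0.0233); the call was lost without control 4 (0.0719), with upper-quartile factors (0.443), the clock covariate (0.324), a minimum of 1 CPM in 6 libraries (0.0658) or no filter (0.166), and with unscaled totals the difference was 0.19.

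The clock-gene index as covariate moved other log2 fold changes by over 1.5 times in fold, with the direction kept. They became 2.19 for Adam19, 1.29 for Adamts1, 3.13 for Adamts12, 1.57 for Adamts13, 2.61 for Adamts2, 2.98 for Areg, 1.55 for Gjc1, 4.08 for Lgi2, 3.89 for Syn1, 5.24 for Tnf and 2.53 for Tspan15.

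**Figure D5:**
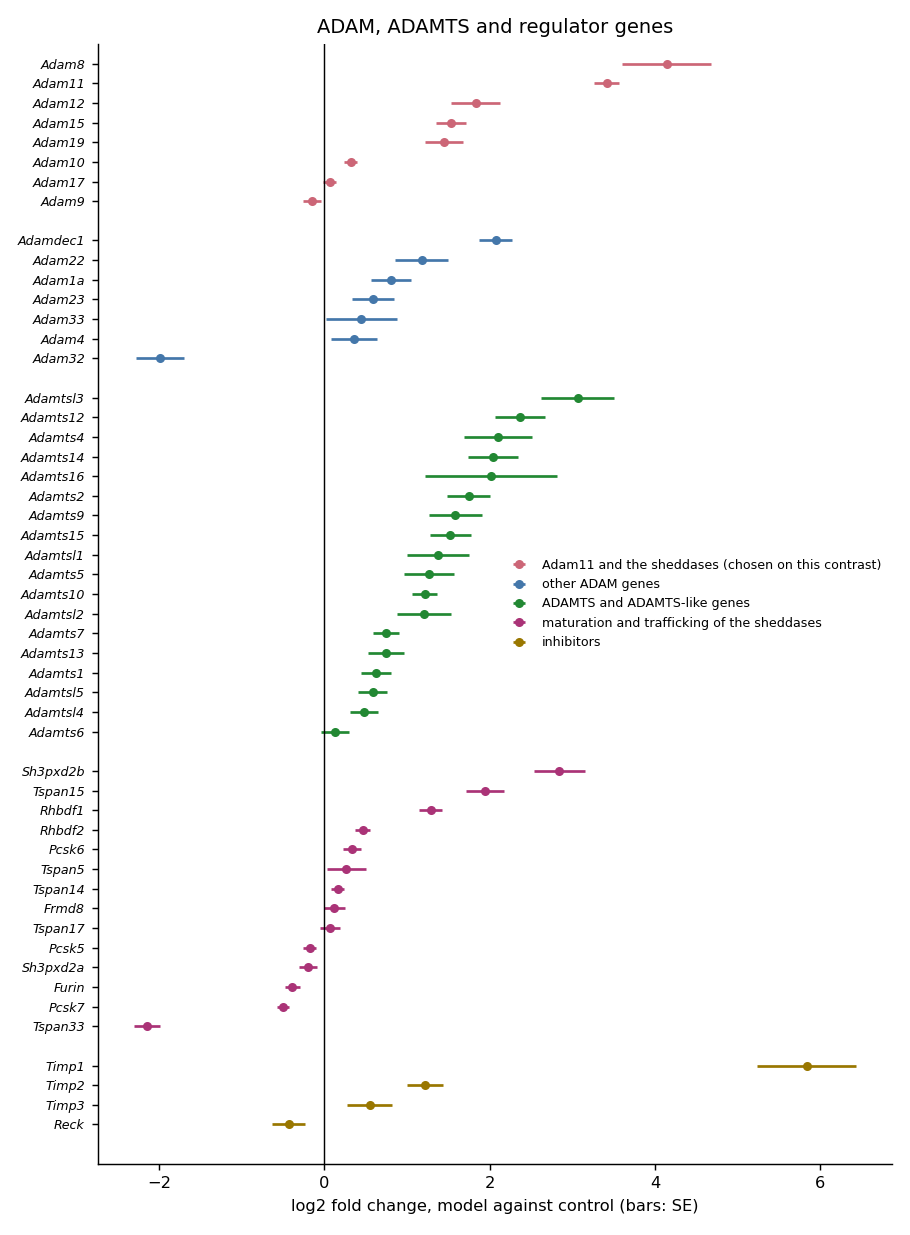
Log2 fold change, model against control, with its SE, for the 8 ADAM genes and the tested genes of 4 lists: other ADAM genes, ADAMTS genes, maturation factors and inhibitors. The 18 ADAMTS genes lie right of 0, and Adam32 and Tspan33 lie farthest to the left.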

How the data were processed

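Liver RNA of 24 mice was captured on oligo(dT) beads and sequenced, per the labels' protocols. The authors deposited raw read counts per Ensembl gene, with exon positions and exon length in bases (an other, non-count column used only for scaling), per the file headers. The genome build was GRCm39, per the submitters' processing notes. For the aligner, the counting program and the strand setting, nothing was given in the sources used here.

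Of 78298 gene IDs, 51498 matched a symbol. The counts were fitted over all 24 libraries with edgeR 4.0.16 (R 4.3.3): TMM factors, default filter by group, robust quasi-likelihood F test, Benjamini-Hochberg adjustment over 17456 genes, calls at adjusted p below 0.05. SE is the absolute log2 fold change over the square root of F. Every adjusted p between groups is from this fit unless another tool is named. Log2 CPM for correlations used a prior count of 2. The script was tested on simulated data. Groups came from the labels, and nothing was left out. The clock-gene index is the mean log2 CPM of Bmal1, Npas2 and Clock minus that of Dbp, Nr1d1 and Per3. Coding sequences were aligned as proteins with MAFFT 7.526 to place the zinc-site codons. Percent identities came from separate global pairwise alignments of each protein with that of Adam11 (Biopython 1.88). Alternatives used DESeq2 1.42.0 and limma 3.58.1.

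Named were the 8 members, the 2 called genes of each list with the largest absolute log2 fold change, the most abundant gene per length of each list, and the 5 genes most like Adam11. Further genes are examples chosen after their values were seen: Adam22, Adam23, Adam1a, Adam33, Adam4, Kcna2, Rhbdf1, Rhbdf2, Frmd8, Furin, Pcsk7, Tspan15, Timp3, Tnf, Il6ra, Cd44, Notch2, Adamts2, Adamts6, Adamts13, Syn1, Gjc1 and the untested genes. The members and lists were chosen with earlier results of these data known.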

Additional observations from a re-analysis of the deposited data

How the results depend on the processing

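The log2 fold change of Adam11 was 3.33 to 3.45 on leaving out each library in turn, and 3.27 to 3.75 over the other alternatives. The genes higher numbered 5198 to 5474 and the genes lower 4787 to 5156 on leaving out 1 library. With unscaled library totals 9404 were higher and 1564 lower, so that 85.7% of calls were higher against 52% with TMM (62.8% with upper-quartile factors). The clock covariate left 3035 lower and moved Adam19 to 2.19. Of the 5 calls among other ADAM genes, 2 were left with a minimum of 1 CPM in 6 libraries and 3 with the clock covariate, which left 2 of the 5 integrin calls. Without the 2 farthest mice, 0 relations of Adam11 with other members passed. Of the relations between members and marker scores, 7 passed, all of them of catalytic members. Directions turned with unscaled totals for Itgb1 (0.19), Gphn (0.16) and Notch2 (0.15) and for the r of Adam11 (0.135) and Adam9 (0.153) with the macrophage score. They also turned for Adam11 with Adam17 after removing the clock index (r = -0.111) and for Adam9 with the macrophage score without model replicate 10 (0.023), an alternative chosen after seeing the data. The cause was not tested.

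The replicate numbers did not pair the samples: over 6 pairs, same-numbered deviations correlated at -0.293 to 0.067, and 1 of 6 samples correlated best with its own number. With the replicate block, 4427 genes were higher and 3378 lower, 2 other ADAM genes and 3 integrins were called, and Adam4 turned to -0.27.

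Depth limits Adam12, Adam8, Areg, Lgi2, Timp1, Tnf, Adamtsl3, Syn1, Adam22, Kcnab2, Gjc1 and Adamts12, whose controls held few counts. Their fold changes are imprecise.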

Other observations

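The relations of Adam11 to the 6 other marker scores with enough signal were computed after the values above were seen, as a family of their own over the 18 model mice. Adam11 was higher in model mice with a higher hepatocyte score (r = 0.665, rho = 0.655, permutation p = 0.00323 and 0.00398, adjusted p = 0.00969 and 0.0103). Without model 10 and model 13, the mice farthest from the median score, r was 0.679. It was also higher with a higher endothelial score (r = 0.616, rho = 0.641, adjusted permutation p = 0.0137 and 0.0103; r = 0.623 without model 9 and model 13). With the cholangiocyte score, which marks bile duct cells, Adam11 went the other way (r = -0.734, rho = -0.713, adjusted permutation p = 0.00522 and 0.0078; r = -0.690 without model 11 and model 14). Model 1, 5, 6, 7, 8, 10, 11, 12 and 14 had cholangiocyte scores of -0.199 to 1.66 and Adam11 at 6.135 to 6.636 log2 CPM. The remaining model mice had scores of 2.092 to 3.334 and Adam11 at 5.717 to 6.084, except model 15 at 6.39. Whether any of these relations holds within each of these sets of mice was not tested. The neutrophil (r = -0.150), T and NK cell (0.023) and B cell (-0.043) scores did not pass, with adjusted permutation p from 0.834 to 0.928. Between groups the same hepatocyte markers were lower in model livers, where Adam11 was higher. The pattern was noticed and tested in the same mice.

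Among the other cell types, 6 of 6 B cell, 6 of 8 T and NK cell, 5 of 7 tested neutrophil, 7 of 8 endothelial and 2 of 7 cholangiocyte markers rose, and none of these fell. Of all genes tested, 31.2% rose and 28.8% fell, and the cholangiocyte count is near the share that rose. The 1 tested adipocyte marker, Lipe, fell. Adipoq, Plin1, Lep and Retn had too few counts to test. They held 1, 3, 0 and 0 counts in controls and 16, 22, 1 and 13 in model mice.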
